A study of Mus musculus with 6 samples.

Results

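The genes described here are 10 components of Notch signalling in arteries and endothelium, chosen by symbol from a table of 46095 genes: the ligands Dll1, Dll4, Jag1 and Jag2, the receptors Notch1, Notch2 and Notch4, and the targets Hey1, Hey2 and Heyl. All 10 symbols were found, and 9 of the 10 passed the filter on low counts. RNA was sequenced from 3 hearts of STAT3cKO mice, in which STAT3 is deleted in cardiomyocytes, and from 3 wild-type hearts labelled NC. STAT3 carries signals of cytokine receptors to the nucleus, and the comparison asks how heart transcripts differ when cardiomyocytes lack it. The labels used here name no age, sex, strain, litter or Cre driver, and whether 1 library stands for 1 animal is not said. The p-values therefore measure the spread between these 6 libraries, which could be technical. Cells other than cardiomyocytes, endothelium and smooth muscle among them, keep the gene under the labelled design. Replicates carry the numbers in the sample titles, which are 3, 6 and 91 for STAT3cKO and 1, 3 and 4 for NC.

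Notch signalling passes between touching cells. A ligand of the Delta or Jagged family on one cell binds a Notch receptor on its neighbour, the receptor is cut first by an ADAM protease and then by gamma-secretase, and the freed intracellular part enters the nucleus, where it joins the DNA-binding protein RBPJ and switches on repressors of the Hes and Hey families. In blood vessels Dll4 and Notch1 restrain sprouting and set arterial identity, Jag1 on endothelium signals to Notch3 on smooth muscle, and Hey1, Hey2 and Heyl are classical vascular targets of the pathway.

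Libraries held 15416877 to 17867944 counts in STAT3cKO hearts and 16168682 to 18264052 in NC hearts, and 1 count was worth 0.0515 to 0.0682 CPM (counts per 1e6 counts, after scaling by edgeR's TMM factors). Stat3 stood at 52.9, 63.8 and 59.6 CPM in STAT3cKO replicates 3, 6 and 91, against 99.7, 85.8 and 97.5 CPM in NC replicates 1, 3 and 4 (edgeR adjusted p = 0.000677), and its exons overlap those of Stat5a on the opposite strand. The cardiomyocyte myosin Myh6 averaged 16130 CPM in STAT3cKO and 17020 CPM in NC (edgeR adjusted p = 0.704). It does not stand for all cardiomyocyte transcripts, since of 10 such markers 4 rose and 2 fell at an adjusted p under 0.05. Myl2, for one, averaged 12720 CPM with the deletion and 7317 CPM without it (edgeR adjusted p = 0.000352). Ryr2 went the other way, from 1447 CPM in NC to 919.9 CPM in STAT3cKO (edgeR adjusted p = 0.00603). Ddx3y, a Y-linked gene, was counted in all 6 hearts, with 1091 to 1375 counts in STAT3cKO hearts and 1514 to 1934 in NC hearts. On the CPM scale its groups overlapped, at 74.5 to 81.3 CPM in STAT3cKO and 77.9 to 106.1 CPM in NC (edgeR adjusted p = 0.0937). Long transcripts gave lower CPM in STAT3cKO hearts. The slope of log2 CPM, centred on each gene's mean, per doubling of transcript length was -0.110, -0.082 and -0.114 in STAT3cKO replicates 3, 6 and 91, against 0.048, 0.109 and 0.149 in NC replicates 1, 3 and 4. A fit with an offset for transcript length and GC content was therefore run as well. In that fit Ryr2, whose longest transcript has 16814 nt, was no longer lower (log2 fold change -0.16, edgeR adjusted p = 0.364). Of the 10 cardiomyocyte markers 3 were then higher, Myl2 among them, and 0 lower.

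Genes with an adjusted p under 0.05 in edgeR's quasi-likelihood test, adjusted over all 14484 genes tested, are called lower or higher. Of the 9 tested Notch genes 3 were lower in STAT3cKO hearts (Dll4, Jag1 and Notch1), 0 were higher and 6 did not pass. Over all genes tested 25.8% were called, 12.6% lower and 13.2% higher, and among genes whose longest transcript lies in the range of the tested members, 2423 to 10500 nt, 16.4% were lower and 8.64% higher. The count rests on ligands and a receptor, and none of the 3 Hey genes passed. All 9 fitted log2 fold changes were negative, with a median of -0.41 against -0.002 for all genes. In the fit with the offset, 7 of the 9 were negative and their median was -0.26, against 0.02 for all genes. With library size as the only scaling, 4 of the 9 were lower and 0 higher, and of all genes 2714 were lower and 1109 higher, against 1820 and 1918 with TMM. For 6 of the 9 every STAT3cKO heart lay below every NC heart and for 3 the groups overlapped, while of all tested genes 43.0% did not overlap, 21.5% with STAT3cKO below NC. In whole-heart RNA, fewer cells of a type and less RNA per cell cannot be told apart.

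**Figure D1:**
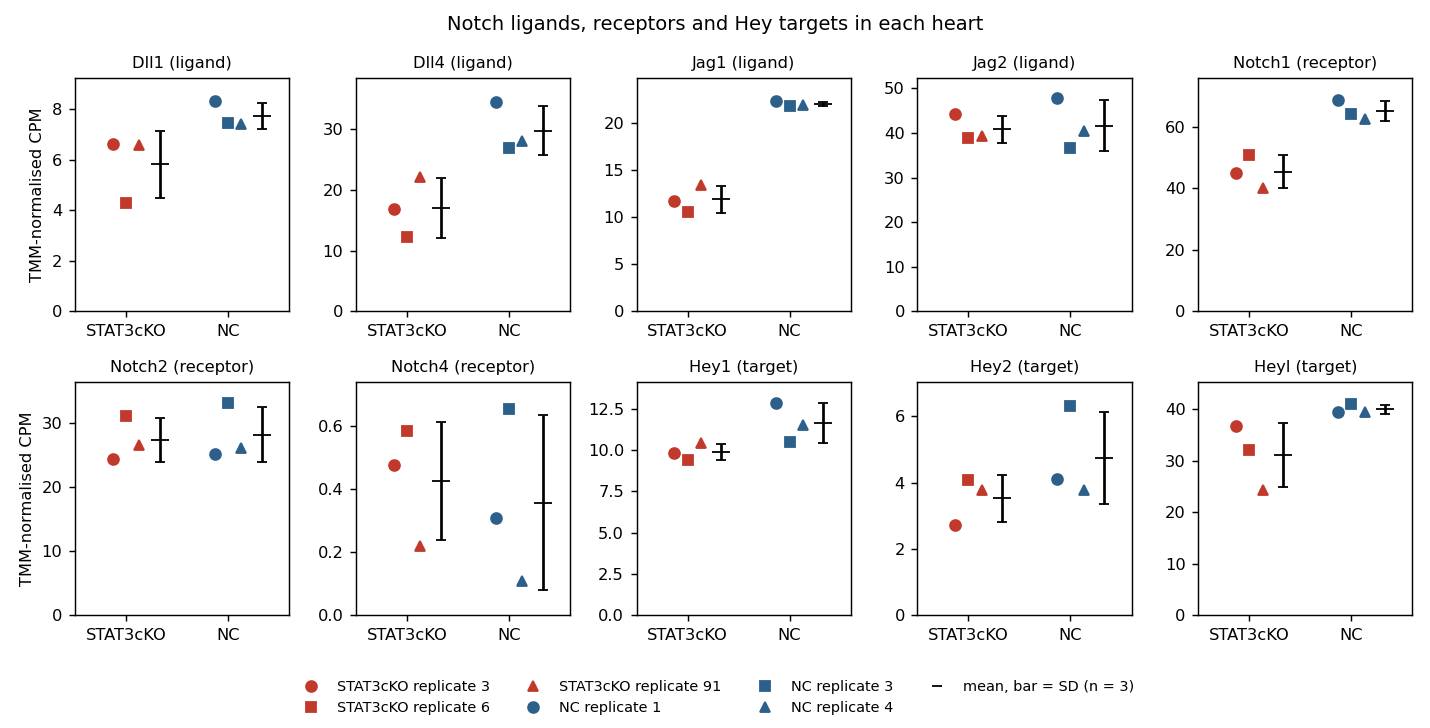
TMM-normalised CPM (y axis, from 0) of each of the 10 Notch genes in the 3 STAT3cKO and 3 NC hearts, one marker shape per replicate, with the mean and SD beside each group. Jag1 lies between 10.6 and 13.4 CPM in STAT3cKO hearts and between 21.9 and 22.3 CPM in NC hearts, whereas the groups overlap for Jag2, Notch2, Notch4 and Hey2.

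Jag1, the Jagged ligand of endothelium and smooth muscle, showed the largest fold change of the 9 and the narrowest spread among NC hearts relative to its level. It reached 11.7, 10.6 and 13.4 CPM in STAT3cKO replicates 3, 6 and 91, against 22.3, 21.9 and 21.9 CPM in NC replicates 1, 3 and 4. All 3 STAT3cKO hearts lay well below all NC hearts. The means were 11.9 ± 1.42 CPM in STAT3cKO and 22.1 ± 0.246 CPM in NC (SD, n = 3 each). In edgeR's test the log2 fold change was -0.89 ± 0.12 (SE, adjusted p = 0.000481). Jag1 (GRCm38 chromosome 2, 137081456 to 137116644, minus strand) overlaps no other gene in the GENCODE annotation, and it stayed past the threshold in all 16 alternative fits, with log2 fold changes of -0.99 to -0.67 and adjusted p up to 0.00358.

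Dll4, the Delta ligand of arterial and sprouting endothelium (chromosome 2, 119325784 to 119335962, plus strand), was lower as well, with more scatter among STAT3cKO hearts. It stood at 16.8, 12.3 and 22.2 CPM in STAT3cKO replicates 3, 6 and 91, against 34.4, 26.8 and 28.03 CPM in NC replicates 1, 3 and 4. Replicate 91 was the STAT3cKO heart nearest to the NC hearts, and the groups still did not overlap. The means were 17.1 ± 4.96 CPM in STAT3cKO and 29.8 ± 4.06 CPM in NC (SD, n = 3 each). In edgeR's test the log2 fold change was -0.80 ± 0.19 (SE, adjusted p = 0.0154). Leaving out STAT3cKO replicate 3 gave -0.78 ± 0.24 (SE, edgeR adjusted p = 0.0615), and leaving out NC replicate 1 gave -0.68 ± 0.21 (SE, edgeR adjusted p = 0.0519). The call was lost both times, although without STAT3cKO replicate 3 the fold change hardly moved and the SE grew. Exons of Dll4 overlap the transcript Gm14207 on the opposite strand, which had 11 to 19 counts in STAT3cKO hearts and 17 to 32 in NC hearts, and the sources used here do not say whether the counting used strand.

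Dll1, another Delta ligand with roles in vessels, muscle and immune cells, was scarce and did not pass. It had 97, 66 and 120 counts in STAT3cKO replicates 3, 6 and 91, against 162, 125 and 135 in NC replicates 1, 3 and 4. Its level was 5.82 ± 1.33 CPM in STAT3cKO and 7.73 ± 0.525 CPM in NC (SD, n = 3 each), without overlap between the groups, and its log2 fold change of -0.41 ± 0.19 (SE) missed the threshold (edgeR adjusted p = 0.138). Its exons overlap a long non-coding RNA on the opposite strand, A930024N18Rik.

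Jag2, the second Jagged ligand, had the highest mean of the ligands per transcript length, though its range overlapped that of Dll4 in NC hearts. It showed no detectable difference between the groups. It stood at 44.2, 38.95 and 39.3 CPM in STAT3cKO replicates 3, 6 and 91, against 47.8, 36.6 and 40.5 CPM in NC replicates 1, 3 and 4, and the groups overlapped. The log2 fold change was -0.03 ± 0.11 (SE; edgeR adjusted p = 0.863). Its sign turned in some alternatives, reaching 0.11 once the offset was in the fit (adjusted p = 0.538).

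Promoter windows of 250 bases before to 50 after the transcription start were available from RefSeq (GRCm38.p6) for 8 of the 10 genes, with 2 windows for Dll1. Hey1 and Heyl had no window and were not searched. The windows were searched on both strands for TGGGAA, the core that RBPJ binds, for TTCNNNGAA, the palindrome that STAT proteins bind, and for CACGTG, an E-box that Hey proteins can bind. These letters occurred in 25.6%, 8.30% and 7.15% of all 32851 such windows. Of the 8 genes, only Hey2 held TGGGAA, at 2 places, and none held TTCNNNGAA or CACGTG. The windows of the ligands that were lower, Jag1 and Dll4, are shown beside that of Hey2, the only Hey gene that could be searched. In the Hey2 window capitals mark TGGGAA or its reverse complement, with its first base at position -207 from the start for the reverse complement and at -3 for TGGGAA itself.
Jag1 promoter (chr2:137116471-137116770, minus strand): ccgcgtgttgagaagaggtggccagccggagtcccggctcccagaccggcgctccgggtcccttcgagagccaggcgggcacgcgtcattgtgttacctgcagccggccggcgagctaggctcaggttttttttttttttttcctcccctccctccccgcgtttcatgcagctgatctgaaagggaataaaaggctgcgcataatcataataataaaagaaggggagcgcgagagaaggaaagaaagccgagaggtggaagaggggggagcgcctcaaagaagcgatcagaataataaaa
Dll4 promoter (chr2:119325534-119325833, plus strand): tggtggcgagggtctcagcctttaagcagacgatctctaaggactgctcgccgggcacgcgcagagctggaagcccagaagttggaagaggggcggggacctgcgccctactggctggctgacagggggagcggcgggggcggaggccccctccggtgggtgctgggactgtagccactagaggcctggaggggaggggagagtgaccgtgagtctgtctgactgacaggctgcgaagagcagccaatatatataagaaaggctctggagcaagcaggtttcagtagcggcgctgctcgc
Hey2 promoter (chr10:30842734-30843033, minus strand): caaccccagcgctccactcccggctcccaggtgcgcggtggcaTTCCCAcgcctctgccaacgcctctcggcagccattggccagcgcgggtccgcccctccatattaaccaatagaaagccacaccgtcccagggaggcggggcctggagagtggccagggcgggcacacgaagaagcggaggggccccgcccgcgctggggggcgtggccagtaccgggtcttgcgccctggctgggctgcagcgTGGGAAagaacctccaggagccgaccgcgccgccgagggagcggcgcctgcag
A match is a description of the letters in this window, and these counts carry no measure of binding.

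Among the receptors, Notch1, the main receptor of arterial endothelium and endocardium (chromosome 2, 26457903 to 26516663, minus strand), was lower in the fit without a length term. It stood at 45.1, 50.8 and 40.1 CPM in STAT3cKO replicates 3, 6 and 91, against 68.6, 64.1 and 62.5 CPM in NC replicates 1, 3 and 4. The groups were clearly apart on this scale. The means were 45.4 ± 5.35 CPM in STAT3cKO and 65.1 ± 3.16 CPM in NC (SD, n = 3 each). In edgeR's test the log2 fold change was -0.52 ± 0.10 (SE, adjusted p = 0.0032). The longest Notch1 transcript has 9488 nt, and the call was lost when the offset entered the fit (-0.17 ± 0.09 SE, edgeR adjusted p = 0.206). Short transcripts annotated on the opposite strand, 0610009E02Rik and Gm13568, overlap Notch1 exons, and the first of them had 12 to 14 counts in STAT3cKO hearts and 8 to 12 in NC hearts.

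Notch2, the receptor shared by many cell types, had the longest transcript of the set, at 10500 nt, and its result depended on the treatment of length. Its level was 24.4, 31.1 and 26.6 CPM in STAT3cKO replicates 3, 6 and 91, against 25.3, 33.2 and 26.2 CPM in NC replicates 1, 3 and 4, with full overlap. The log2 fold change was -0.05 ± 0.13 (SE; edgeR adjusted p = 0.826). With the length and GC offset it was 0.36 ± 0.12 (SE), higher in STAT3cKO hearts at the edge of the threshold (edgeR adjusted p = 0.049). With that offset 2 of the 9 genes were lower (Jag1 and Dll4) and 1 was higher (Notch2), while 7.91% of all genes were lower and 10.9% higher.

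Notch4, a receptor known from endothelial cells, was close to absent from the counts in both groups. It had 7, 9 and 4 counts in STAT3cKO replicates 3, 6 and 91, against 6, 11 and 2 in NC replicates 1, 3 and 4, and it was removed by the filter. In a fit without the filter its log2 fold change was 0.23 ± 0.70 (SE; edgeR adjusted p = 0.856), so a difference was not detectable at these counts. The endothelial tight junction gene Cldn5 was also near 0, with 1, 5 and 6 counts in STAT3cKO hearts and 8, 9 and 10 in NC hearts, while Cdh5, the cadherin of endothelial junctions, had 1993 to 2139 counts in STAT3cKO hearts and 4123 to 5944 in NC hearts. Both were singled out after their values were seen. Whether the way reads were counted has a part in the low counts of Notch4 and Cldn5 was not tested.

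Notch3, the receptor of smooth muscle and pericytes and no member of the set, was lower in both fits. It stood at 38.5, 37.5 and 29.8 CPM in STAT3cKO replicates 3, 6 and 91, against 64.6, 58.2 and 55.8 CPM in NC replicates 1, 3 and 4 (log2 fold change -0.76 ± 0.11 SE, edgeR adjusted p = 0.000782, and -0.46 with adjusted p = 0.00899 after the offset). Its exons overlap Gm17276 on the opposite strand. Of 14 markers of smooth muscle and pericytes 8 were lower and 1 higher without the offset. Their part in the level of Notch3 was not tested.

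**Figure D2:**
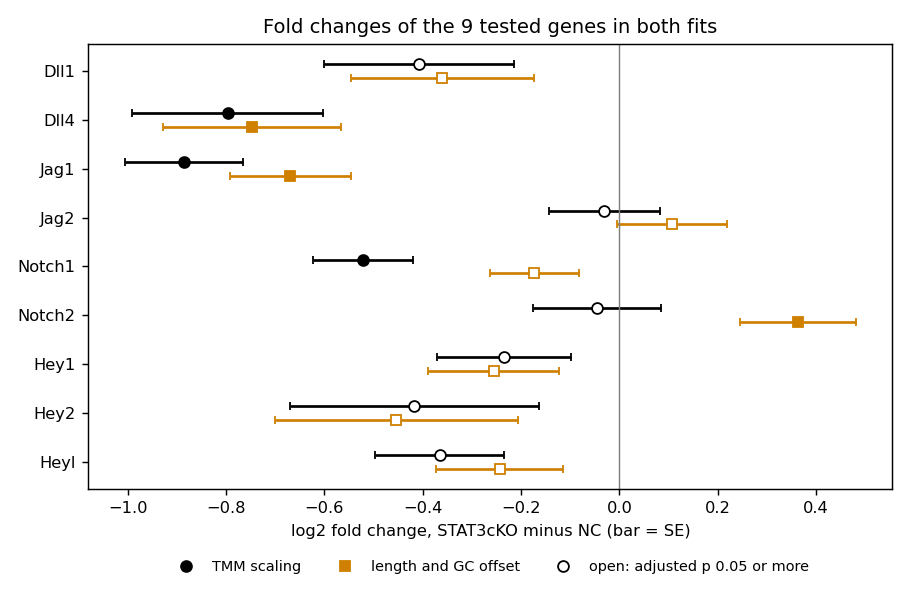
Log2 fold change, STAT3cKO minus NC (x axis, bars are SE), of the 9 tested Notch genes with TMM scaling (circles) and with the length and GC offset (squares), filled where the adjusted p is under 0.05. Jag1 and Dll4 are filled in both fits, Notch1 is filled only with TMM scaling (-0.52) and Notch2 only with the offset (0.36).

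None of the Hey genes, which encode repressors induced by Notch, passed the threshold, although the fitted change of each was negative. Heyl, typical of vascular smooth muscle, came closest. It stood at 36.6, 32.1 and 24.4 CPM in STAT3cKO replicates 3, 6 and 91, against 39.3, 41.0 and 39.4 CPM in NC replicates 1, 3 and 4. The NC hearts were tightly grouped and the STAT3cKO hearts ran from just below them to well below. The log2 fold change was -0.37 ± 0.13 (SE; edgeR adjusted p = 0.0576). Heyl passed in 3 of the 16 alternative fits, which were library size as the only scaling (adjusted p = 0.0122), no filter (0.00648) and without STAT3cKO replicate 3 (0.0258), and its adjusted p over the alternatives reached 0.21.

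Hey1, a target in endothelium and endocardium, stood at 9.83, 9.41 and 10.4 CPM in STAT3cKO replicates 3, 6 and 91, against 12.9, 10.5 and 11.5 CPM in NC replicates 1, 3 and 4. The highest STAT3cKO heart lay just under the lowest NC heart. The log2 fold change was -0.24 ± 0.14 (SE; edgeR adjusted p = 0.221). Hey2, a target in arteries that is also known from ventricular myocardium, was the scarcest tested member, with 40, 63 and 69 counts in STAT3cKO replicates 3, 6 and 91, against 80, 106 and 69 in NC replicates 1, 3 and 4. Its groups overlapped on the CPM scale, at 3.53 ± 0.713 CPM in STAT3cKO and 4.74 ± 1.38 CPM in NC (SD, n = 3 each), and its log2 fold change was -0.42 ± 0.25 (SE; edgeR adjusted p = 0.247).

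Levels were compared between genes as CPM per kilobase of the longest transcript, where the place of Notch4 carries the doubt about its counts given above. In STAT3cKO hearts the order was Jag2 (7.99), Heyl (6.84), Notch1 (4.78), Dll4 (4.56), Hey1 (4.08), Notch2 (2.61), Jag1 (2.12), Dll1 (1.63), Hey2 (1.39) and Notch4 (0.0648). In NC hearts it was Heyl (8.80), Jag2 (8.16), Dll4 (7.94), Notch1 (6.86), Hey1 (4.80), Jag1 (3.93), Notch2 (2.69), Dll1 (2.16), Hey2 (1.86) and Notch4 (0.0544). Neighbours whose ranges over 3 hearts overlapped were, in STAT3cKO, Jag2 and Heyl, then Notch1, Dll4 and Hey1 in turn, then Notch2 and Jag1, and Dll1 and Hey2. In NC they were Heyl, Jag2, Dll4 and Notch1 in turn, and Dll1 and Hey2. Jag1 and Notch2 did not overlap in NC hearts, where Jag1 was higher per kilobase, and overlapped in STAT3cKO hearts.

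Ratios of raw counts within a heart do not depend on the scaling between hearts, and they were added after the data were seen. They hold no offset for transcript length and GC content, so the length trend that differed between the groups stays in them. All 10 pairs of tested members with the same role were compared, and the groups did not overlap for 5 of 6 ligand pairs, for the 1 receptor pair and for 0 of 3 pairs of Hey genes. Pairs of one role share genes, so these counts are not independent. How often pairs drawn from all genes do not overlap was not computed, and of single tested genes 43.0% did not overlap. Jag1 to Jag2 was 0.265, 0.272 and 0.342 in STAT3cKO replicates 3, 6 and 91, against 0.468, 0.598 and 0.541 in NC replicates 1, 3 and 4. Dll4 to Jag2 was 0.380, 0.315 and 0.565 in the STAT3cKO hearts, against 0.720, 0.733 and 0.691 in the NC hearts. In both pairs the STAT3cKO hearts held less of the first ligand relative to Jag2. Dll1 stood higher relative to both, with Dll1 to Dll4 at 0.347 ± 0.0491 in STAT3cKO and 0.261 ± 0.0178 in NC, and Dll1 to Jag1 at 0.486 ± 0.0796 in STAT3cKO and 0.350 ± 0.0198 in NC (SD, n = 3 each). Relative to Jag2 it stood lower, at 0.142 ± 0.0294 in STAT3cKO and 0.187 ± 0.0150 in NC (SD, n = 3 each). Dll4 to Jag1, in contrast, was 1.41 ± 0.247 in STAT3cKO and 1.35 ± 0.168 in NC (SD, n = 3 each), with overlap. Notch1 to Notch2 was 1.85, 1.63 and 1.51 in STAT3cKO replicates 3, 6 and 91, against 2.71, 1.93 and 2.38 in NC replicates 1, 3 and 4. Each pair without overlap had a two-sided exact permutation p of 0.1, the smallest that 3 against 3 allows, so none of the 10 could pass a threshold of 0.05.

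**Figure D3:**
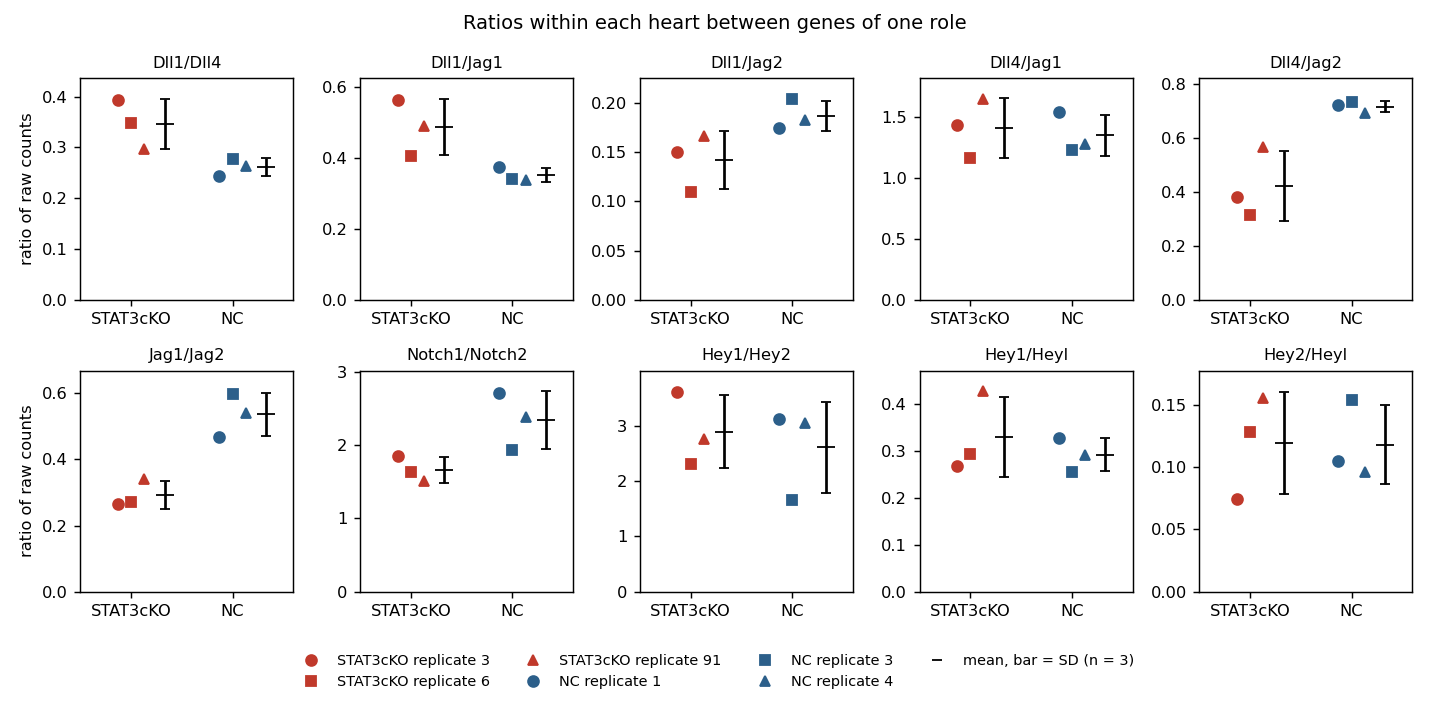
Ratio of raw counts within each heart (y axis, from 0) for the 10 pairs of tested Notch genes with the same role, in STAT3cKO and NC hearts, with mean and SD. Jag1/Jag2 and Dll4/Jag2 are lower in every STAT3cKO heart, at most 0.342 and 0.565, than in any NC heart, at least 0.468 and 0.691, while the 3 Hey pairs overlap.

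Markers of vascular and other heart cells also differed in the same comparison. Which cells carry the Notch transcripts cannot be read from whole-heart RNA. Of 20 endothelial markers 19 were tested, 9 were lower and 0 higher, and none was at 0 in all hearts. Their summed level ran from 2336 to 2647 CPM in STAT3cKO hearts and from 2896 to 3447 CPM in NC hearts. Of 14 markers of smooth muscle and pericytes 8 were lower and 1 higher, and their sum ran from 2498 to 2802 CPM in STAT3cKO hearts and from 3102 to 3246 CPM in NC hearts. Des, which did not pass, gave 1365 CPM of that sum in STAT3cKO and 1298 CPM in NC on average, so the sum hides scarcer markers. Acta2 averaged 29.2 CPM in STAT3cKO and 124.1 CPM in NC, and Myh11 12.4 and 85.0 CPM. Smtn, the 1 that was higher, averaged 198.6 CPM in STAT3cKO and 108.9 CPM in NC. Of 5 endocardial markers 3 were lower and 0 higher, and their sum ran from 93.8 to 106.8 CPM in STAT3cKO hearts and from 151.1 to 179.5 CPM in NC hearts. Of 10 markers each, macrophages had 6 lower and 0 higher, fibroblasts 2 lower and 1 higher, and cardiomyocytes 2 lower and 4 higher, and of 5 erythroid markers 4 were higher and 0 lower. These counts stand beside 12.6% lower and 13.2% higher over all genes, which the fibroblast counts lie near. In the fit with the offset the endothelial and endocardial counts were as above, smooth muscle and pericytes had 5 lower and 1 higher, macrophages 7 and 0, fibroblasts 1 and 1, cardiomyocytes 0 and 3, and erythroid markers 0 and 1, beside 7.91% lower and 10.9% higher over all genes. The part of these markers in the lower levels of Jag1, Dll4 and Notch1 was not tested, and the shares of each gene in the endothelial counts of its own library are given instead.

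Jag1 made up 0.443%, 0.412% and 0.574% of the summed endothelial counts in STAT3cKO replicates 3, 6 and 91, against 0.648%, 0.756% and 0.756% in NC replicates 1, 3 and 4. Dll4 made up 0.634%, 0.477% and 0.949% in the STAT3cKO hearts, against 0.998%, 0.927% and 0.966% in the NC hearts. Notch1 made up 1.70%, 1.98% and 1.72% in the STAT3cKO hearts, against 1.99%, 2.21% and 2.15% in the NC hearts. The Jag1 and Notch1 groups remained apart, Notch1 narrowly, and the Dll4 groups overlapped through STAT3cKO replicate 91. The shares hold no offset for transcript length and GC content, so the length trend that differed between the groups stays in them. The Notch1 call was lost in the fit with that offset (edgeR adjusted p = 0.206). With Cdh5 and Pecam1 left out of the endothelial sum the Dll4 groups did not overlap, at 0.709%, 0.537% and 1.07% in the STAT3cKO hearts, against 1.20%, 1.11% and 1.16% in the NC hearts. Both markers were themselves lower (log2 fold change -1.095 and -0.695), so leaving them out moves the ratio of every gene down. Hey1, for one, went from a log2 ratio of 0.06 to -0.03, and the separation for Dll4 follows in part from this choice. With all markers in the sum Jag2 went the other way from Jag1, at 1.67%, 1.52% and 1.68% in the STAT3cKO hearts and 1.39%, 1.26% and 1.40% in the NC hearts. As a share of all counts Jag2 did not keep that direction, with a log2 ratio of -0.14 and overlap in place of 0.27. The shares of the Hey genes overlapped, with Hey1 at 0.394 ± 0.0442% in STAT3cKO and 0.378 ± 0.0175% in NC (SD, n = 3 each). The two-sided exact permutation p was 0.1 for Jag1, Notch1 and Jag2, the smallest that 3 against 3 allows, among the shares of 10 genes compared. The makeup of the denominator differed. Fabp4 alone held 29.5% to 31.5% of it in STAT3cKO hearts and 20.4% to 22.7% in NC hearts. Fabp4 itself did not pass (log2 fold change 0.23, edgeR adjusted p = 0.19). Its larger part lowers the shares of the other genes in STAT3cKO hearts, and the narrow separation of Notch1 depends on having Fabp4 in the sum.

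Genes that work upstream and downstream of these 10 went both ways. Of 53 further genes of the pathway, 46 were tested, of which 12 were lower, 4 higher and 30 did not pass (median log2 fold change -0.16, and -0.06 with the offset). The background for these counts is the 12.6% lower and 13.2% higher of all genes. With the length and GC offset 5 of the 46 were lower and 4 higher, near the 7.91% lower and 10.9% higher over all genes in that fit. Leaving out 1 heart left 7 to 11 lower, 7 without STAT3cKO replicate 3 or NC replicate 4 and 8 without STAT3cKO replicate 91, and 2 to 3 higher, 2 without STAT3cKO replicate 6 or 91 or NC replicate 4.

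Of 10 genes for cutting the receptor, 3 were lower and 0 higher. Ncstn, the nicastrin subunit of gamma-secretase, stood at 38.5 ± 1.78 CPM in STAT3cKO and 53.4 ± 2.89 CPM in NC (SD, n = 3 each; log2 fold change -0.47, edgeR adjusted p = 0.00313), and it was still lower once the offset was in the fit (adjusted p = 0.00599). Its exons overlap Copa on the opposite strand. Furin, the protease that matures Notch in the Golgi (-0.40), and Adam10, which makes the first cut after ligand binding (-0.35), were lower too, and both calls were lost with the offset (adjusted p = 0.11 and 0.0669).

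Of 13 genes of the nuclear complex and its corepressors, 5 were lower and 0 higher, and with the offset 1 was lower and 1 higher. The one that was higher with the offset was Snw1, a coactivator and splicing factor (0.32, edgeR adjusted p = 0.0222, against 0.17 and 0.197 without it). Rbpj, the DNA-binding partner of the Notch intracellular domain, averaged 25.1 ± 2.11 CPM in STAT3cKO and 31.9 ± 1.38 CPM in NC (SD, n = 3 each; log2 fold change -0.35, edgeR adjusted p = 0.0256). The Rbpj call was lost with the offset (adjusted p = 0.272) and without any 1 heart other than STAT3cKO replicate 6 (0.0545 to 0.0979). The acetyltransferase Ep300 (-0.59) and the corepressor Spen (-0.51) have long transcripts and were lower only without the offset (adjusted p = 0.166 and 0.572 with it). Kdm5a, a histone demethylase that binds RBPJ, stood at 1.43, 2.21 and 0.767 CPM in STAT3cKO replicates 3, 6 and 91, against 3.19, 7.16 and 5.10 CPM in NC replicates 1, 3 and 4 (log2 fold change -1.82 ± 0.39 SE, edgeR adjusted p = 0.00699). It remained lower with the offset (adjusted p = 0.0176), and its exons overlap Ccdc77 on the opposite strand.

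In the fit without the offset all 4 genes that were higher belonged to the ubiquitin and glycosylation lists. Of 13 genes of ubiquitination and endocytosis, 3 were higher and 2 lower, and with the offset 3 were higher and 0 lower. Dtx3, of the Deltex family of ubiquitin ligases, stood at 66.7, 70.3 and 77.1 CPM in STAT3cKO replicates 3, 6 and 91, against 32.3, 35.6 and 31.3 CPM in NC replicates 1, 3 and 4 (log2 fold change 1.11 ± 0.10 SE, edgeR adjusted p = 2.83e-05), and it passed in all 16 alternatives. Mib2, a ligase for Notch ligands, was 34.7 ± 3.59 CPM in STAT3cKO and 24.1 ± 1.84 CPM in NC (SD, n = 3 each; log2 fold change 0.53, edgeR adjusted p = 0.00484), also in all 16. Numbl, a relative of the Notch inhibitor Numb, was scarcer (8.98 ± 2.01 CPM in STAT3cKO and 5.48 ± 1.29 CPM in NC, log2 fold change 0.72, edgeR adjusted p = 0.0299). Its call was lost with library size alone (adjusted p = 0.0733) and without STAT3cKO replicate 6 (0.0722) or 91 (0.099) or NC replicate 1 (0.0531) or 4 (0.117). Itch, a ligase that acts on Notch, was lower (-0.35, adjusted p = 0.0182), but not with the offset (adjusted p = 0.193) nor without STAT3cKO replicate 3 (0.056) or 91 (0.0521) or NC replicate 4 (0.0789).

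Of 6 glycosylation genes 1 was higher and 0 lower. It was Poglut1, which adds glucose to the receptor (log2 fold change 0.34, edgeR adjusted p = 0.0476), and it failed in 9 of the 16 alternatives. Manic, lunatic and radical fringe, Mfng (-0.29), Lfng (-0.26) and Rfng (0.10), did not pass, although Mfng was lower with the offset (-0.43, edgeR adjusted p = 0.0391), where Poglut1 was not called. The ligands Dll3, Dlk1, Dlk2 and Dner had at most 11 counts in any heart and were not tested.

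Of the other targets, 3 of 6 were tested and 1 was lower. Nrarp, a direct target that dampens Notch signalling, stood at 8.53, 6.43 and 12.3 CPM in STAT3cKO replicates 3, 6 and 91, against 16.9, 13.9 and 18.1 CPM in NC replicates 1, 3 and 4. The groups were apart, with replicate 91 again the STAT3cKO heart nearest to NC, as for Dll4. The log2 fold change was -0.84 ± 0.21 (SE; edgeR adjusted p = 0.0145, and 0.0167 with the offset). Leaving out STAT3cKO replicate 3, NC replicate 1 or NC replicate 4 ended the call (adjusted p = 0.0596, 0.0502 and 0.0591). Hes1, the best known target outside the Hey family, was 18.5 ± 3.71 CPM in STAT3cKO and 15.9 ± 3.20 CPM in NC (SD, n = 3 each; log2 fold change 0.22, edgeR adjusted p = 0.378), and Hes6 (0.09) did not pass.

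Genes of arterial endothelium, several of which depend on Notch in other settings, were lower in 9 of 12 cases and higher in 0, beside 12.6% lower over all genes. With the offset 7 of the 12 were lower and 0 higher, beside 7.91% lower over all genes. Of the 19 tested markers of endothelium in general, 9 were lower and 0 higher in each of these fits. Both lists were chosen with earlier results of these data known. Sema3g, a semaphorin of arterial endothelium, had the largest change, with 10.2, 12.3 and 11.99 CPM in STAT3cKO replicates 3, 6 and 91, against 43.7, 33.4 and 32.1 CPM in NC replicates 1, 3 and 4 (log2 fold change -1.66 ± 0.14 SE, edgeR adjusted p = 2.32e-05). Efnb2, the ephrin that marks arteries (-0.70, adjusted p = 0.00199), the arterial connexin Gja5 (-1.31, adjusted p = 0.00067) and the co-receptor Nrp1 (-0.67, adjusted p = 0.000906) were lower in edgeR's test and in all 16 alternatives. The transcription factor Sox17 (-0.06, adjusted p = 0.791) and the connexin Gja4 (-0.10, adjusted p = 0.753) did not pass.

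**Figure D4:**
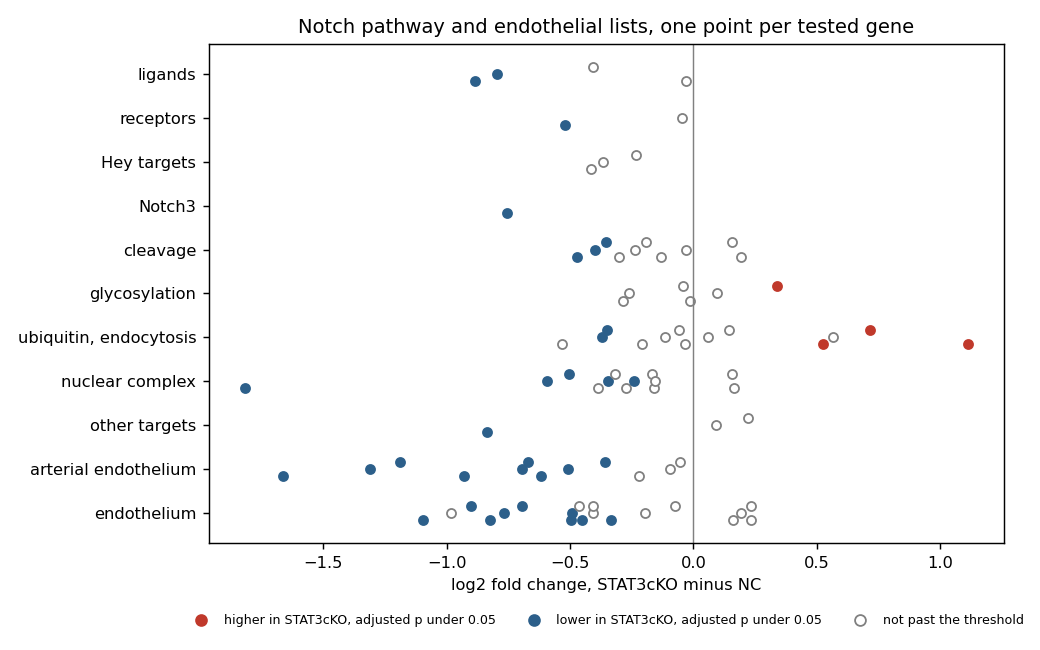
Log2 fold change, STAT3cKO minus NC (x axis), of every tested gene in the Notch, arterial and endothelial lists, one point per gene, filled where the adjusted p is under 0.05. In the arterial list 9 of 12 points are filled on the lower side, and the filled points on the higher side stand in the glycosylation and ubiquitin lists.

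Likeness over the 6 hearts was measured as the root mean square difference between log2 CPM profiles, each centred on its gene's mean, among 13352 genes with a mean of at least 1 CPM. For Notch1 the nearest were Ablim3 (0.0343), Ankrd50 (0.0375) and Fbxo21 (0.0419), and for Jag2 Nt5m (0.0492), Smap2 (0.0508) and Zcrb1 (0.0513). Those near Heyl included Tmem25 (0.0495) and Ogdh (0.0653). Among the members themselves Jag1 and Dll4 were each other's nearest (0.181), as were Notch1 and Heyl (0.158), Jag2 and Hey1 (0.129), and Notch2 and Hey2 (0.230). Dll1 was nearest to Hey1 (0.203). These are descriptions of 6 hearts in which the groups themselves differ.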

How the data were processed

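RNA was sequenced from 6 mouse hearts. Per the labels' protocols, RNA was extracted with Trizol and libraries followed Illumina protocols. HISAT2 and GRCm38 are named in the submitters' processing notes. The authors deposited 1 table of whole-number counts by gene symbol. Which program and annotation made the counts, and whether strand was used, is not given in the sources used here.

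Symbols were matched to GENCODE M21 (GRCm38) for coordinates, overlaps, transcript length and GC content, with a length for 93.8% of the genes tested. Low counts were removed with edgeR 4.0.16 (filterByExpr, minimum count 10, under R 4.3.3). TMM scaling and the robust quasi-likelihood F test between genotypes followed, with Benjamini-Hochberg adjustment across the 14484 genes tested. Standard errors are the fold change over the square root of F. Log2 CPM used a prior count of 2. The fit was tested on simulated data.

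The 10 genes and all gene lists were chosen with earlier results of these data known. Named further genes are, in each list, up to 4 with the smallest adjusted p among those under 0.05, and for the most abundant ligand, receptor and target per kilobase the 3 genes nearest in profile. Other genes named by value were chosen after their values were seen, and a few genes are not reported here. Alternatives were DESeq2 size factors, upper-quartile factors, library size alone, no filter, a strict filter (1 CPM in 3 libraries, mean count 50), DESeq2 1.42.0, limma-voom (limma 3.58.1), a fit without robust estimation, 22 mitochondrial and haemoglobin genes left out, a per-heart offset for length and GC content from splines (5 degrees of freedom) and leaving out each heart, 16 in all.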

Additional observations from a re-analysis of the deposited data

How the results depend on the processing

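No paired analysis was possible because the titles of the groups share only the number 3. Of 144 refits of single members, 131 kept direction and side of the threshold. With the length and GC offset, 1 member was higher (Notch2, log2 fold change 0.36), Jag2 turned to 0.11, Notch1 lost its call, 5 genes of the wider Notch list and 1145 of all genes were lower. With library size alone, the median of all genes moved by -0.11, 1109 of all genes were higher and 2714 lower, 2 of the wider list higher and 15 lower, and 4 members lower. Leaving out 1 heart gave 2 to 3 members lower and 0 higher, 7 to 11 of the wider list lower and 2 to 3 higher, and 1198 to 1999 of all genes lower and 1237 to 1887 higher. It moved Jag2 between -0.12 and 0.077 and Notch2 between -0.15 and 0.084, on both sides of 0. By construction the offset removes a trend with length, and otherwise the cause was not tested. Jag1 passed in all 16 alternatives and Dll4 in 14. Against all counts in place of the endothelial sum, the log2 ratio of the shares was -0.995 in place of -0.60 for Jag1, -0.90 in place of -0.49 for Dll4, -0.64 in place of -0.24 for Notch1, -0.14 in place of 0.27 for Jag2 and -0.35 in place of 0.06 for Hey1, whose groups were then apart. Without Cdh5 and Pecam1 in the sum it was -0.58 for Dll4, with the groups apart, but leaving out these lower markers moved the ratio of every member down. Hey2 and Notch4 had few counts, which limits what differences could be detected.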
